A study of Mus musculus with 23 samples.

Results

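The NR4A receptors Nr4a1, Nr4a2 and Nr4a3 were examined together with Crem, Sik1, Crtc2 and Crtc3, regulators of the transcription factor CREB, in the brown adipose tissue (BAT) of mice kept at room temperature (RT) or in the cold. These 7 genes were taken by symbol from the 14651 genes in the deposited table, and all of them were present in it. BAT came from 23 male mice of 8 to 12 weeks on a mostly C57BL/6 background. Control mice carried floxed alleles of Mcu on both chromosomes (Mcu[fl/fl]). BAT-Mcu-KO mice carried in addition the Ucp1-Cre transgene, which drives Cre recombinase from the promoter of Ucp1. Cre so deletes Mcu, the pore subunit of the mitochondrial calcium uniporter, in cells that express Ucp1. The floxed line began from stem cells of mixed background and was crossed to C57BL/6 until nearly homogeneous, and the Cre line was B6.FVB. The groups were control at RT (6 mice), control at 4 °C (5 mice), BAT-Mcu-KO at RT (6 mice) and BAT-Mcu-KO at 4 °C (6 mice), and the cold lasted 6 h. Mice at 4 °C were housed singly without bedding and, by the methods of the study, without food unless stated otherwise. The feeding state at RT is not given for these mice, so cold and lack of food cannot be told apart.

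Cold reaches brown adipocytes as noradrenaline, which acts on beta-adrenergic receptors, raises cyclic AMP (cAMP) and activates protein kinase A (PKA). PKA phosphorylates CREB, which binds cAMP response elements (CREs) in promoters. CREB also needs coactivators of the CRTC family, which salt-inducible kinases (SIKs) phosphorylate and so hold in the cytoplasm bound to 14-3-3 proteins, until PKA inhibits the SIKs. The NR4A genes are immediate early genes that encode nuclear receptors without a known natural ligand. Crem encodes relatives of CREB, among them the repressor ICER, and Sik1 encodes a kinase of the SIK family whose gene CREB itself induces.

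The sequences upstream of the 3 NR4A genes are shown because Nr4a1 and Nr4a3 changed most, as described below, while Nr4a2 of the same family changed less, and because the CRE is the element by which CREB is known to act on such genes. RefSeq windows of 300 bases (250 before and 50 after the gene start, build GRCm38.p6) were at hand for 4 of the 7 genes, Nr4a1, Nr4a2, Nr4a3 and Crtc3. The printed parts lie outside annotated exons, at chr15:101266596-101266845 on the + strand for Nr4a1, chr2:57124004-57124253 on the - strand for Nr4a2 and chr4:48045055-48045152 on the + strand for Nr4a3, of which the first 98 bases of the window are given. Capitals mark the core of the CRE, TGACG or, on the other strand, CGTCA.
Nr4a1: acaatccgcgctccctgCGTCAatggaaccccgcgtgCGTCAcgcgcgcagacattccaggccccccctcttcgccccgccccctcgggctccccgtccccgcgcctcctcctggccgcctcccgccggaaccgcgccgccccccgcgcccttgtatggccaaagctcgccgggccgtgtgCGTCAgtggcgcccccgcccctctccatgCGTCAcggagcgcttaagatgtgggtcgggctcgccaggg
Nr4a2: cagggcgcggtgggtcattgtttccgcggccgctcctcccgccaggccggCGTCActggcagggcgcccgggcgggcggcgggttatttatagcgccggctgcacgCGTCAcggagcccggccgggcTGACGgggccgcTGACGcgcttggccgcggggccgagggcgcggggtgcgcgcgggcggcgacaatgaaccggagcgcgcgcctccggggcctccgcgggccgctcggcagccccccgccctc
Nr4a3: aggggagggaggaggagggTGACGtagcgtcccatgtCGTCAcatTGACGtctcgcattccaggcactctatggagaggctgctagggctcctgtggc
The window of Nr4a1 held the core at 4 places, which began 233, 213, 69 and 40 bases before the gene start. That of Nr4a2 held it at 4 places as well, 200, 144, 123 and 111 bases before the start. That of Nr4a3 held it at 231, 213, 205 and 147 bases before the start, the last of these beyond the printed part. The window of Crtc3 held no such letters. Among all 32851 windows of the same length in the RefSeq table, 20.8% held the core at least once on either strand and 0.231% held it at 4 or more places. The full palindrome TGACGTCA, which contains the core, was in 1.79% of all windows and in none of these 4, and the NBRE (AAAGGTCA or TGACCTTT), to which NR4A receptors bind as monomers, was in 1.51% of all windows and in none of these 4. Such matches describe letters in a window and do not show binding.

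By GENCODE M21, Nr4a1 (ENSMUSG00000023034.7) lies at chr15:101254269-101274795, Nr4a2 (ENSMUSG00000026826.13) at chr2:57106830-57124003, Nr4a3 (ENSMUSG00000028341.9) at chr4:48045153-48086447, Crem (ENSMUSG00000063889.16) at chr18:3266048-3337748, Sik1 (ENSMUSG00000024042.7) at chr17:31844250-31855804, Crtc2 (ENSMUSG00000027936.18) at chr3:90254163-90264125 and Crtc3 (ENSMUSG00000030527.15) at chr7:80586627-80688877. The start of Nr4a1 in RefSeq falls inside the longer span that GENCODE gives it. Counts were made per gene without strand. In this annotation the pseudogene Gm6225 overlaps an exon of Crem. The counts were made with GENCODE M7 and Gm6225 is not among the deposited genes, so how reads of the overlap were counted is not known. Counts per gene also do not separate ICER from the other isoforms of Crem.

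Libraries held between 7129271 and 21006347 reads counted in genes, of which 23.1% to 38.2% came from mitochondrial genes. The shallowest library, mouse 1 of the control group at 4 °C, is also the one with the most genes at 0 (370), and it recurs below. Mcu itself had normalized counts of 70.8 to 136 in the control mice and 15.2 to 42.4 in the BAT-Mcu-KO mice, without overlap. All 10 markers of brown adipocytes were in the table, with a summed normalized count of 194570.0 to 279651 at RT and 278573 to 340869 at 4 °C. Much of this sum was Ucp1, at means of 63858.5 and 165205 in controls and 56906.9 and 157765 in BAT-Mcu-KO. By the test of cold described below, 3 of the 10 rose and 5 fell in controls, and 3 rose and 2 fell in BAT-Mcu-KO. Summed skeletal muscle markers (7 of 7 in the table) spread from 13.7 to 43749 and did so within every group, and T and B cells were represented by 1 of 6 markers, Cd79a, at 17.9 or less. The summed endothelial markers (6 of 6) went from 3374 to 4785 at RT to 5899 to 10129 at 4 °C in controls. In BAT-Mcu-KO they went from 3619 to 5139 to 5450.1 to 9382. By the same test, in each genotype 3 of the 6 rose, 1 fell (Tie1, -0.69 and -0.90 on the log2 scale) and 2 did not pass. Summed macrophage markers (7 of 7) went from 508 to 911 to 932 to 1332 in BAT-Mcu-KO, where 4 rose and 0 fell. In controls these sums overlapped, at 609 to 974 at RT and 699 to 1114 at 4 °C, and 1 rose and 0 fell. The summed markers of white adipocytes (3 of 3), fibroblasts and preadipocytes (4 of 4) and Schwann cells and nerve (4 of 5) were at most 1733, 4070 and 877, and each overlapped between temperatures in BAT-Mcu-KO. In controls summed white adipocyte markers went from 586 to 1088 at RT to 323 to 518 at 4 °C. The 3 markers did not move alike. On the log2 scale Lep fell (-6.70 in controls and -6.50 in BAT-Mcu-KO) and Agt rose (1.43 and 1.51). Retn fell in controls (-0.77) and was at -0.25 in BAT-Mcu-KO without passing the test. The part of these cell types in the results on cold was not tested. In bulk tissue, fewer cells of a type and less RNA per cell cannot be told apart.

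The first question was how far each gene responded to 6 h at 4 °C in each genotype. In controls 6 of the 7 genes rose (limma on log2 of the normalized count + 1, adjusted p under 0.05 over all genes by Benjamini-Hochberg), when 22.3% of all 14651 genes were called higher and 46.0% were called in either direction. In BAT-Mcu-KO 5 of the 7 rose, against 21.4% of all genes called higher and 43.3% in either direction. None of the 7 fell in either genotype, whereas 23.7% of all genes fell in controls and 21.9% in BAT-Mcu-KO. Nr4a1, Nr4a2, Nr4a3, Crem and Sik1 had every mouse at 4 °C above every mouse at RT in both genotypes, an arrangement that 13.0% of all genes showed in controls and 12.4% in BAT-Mcu-KO, whereas Crtc2 and Crtc3 overlapped. The median log2 fold change of the 7 genes was 1.76 in controls and 1.79 in BAT-Mcu-KO, against -0.02 over all genes in both.

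**Figure D1:**
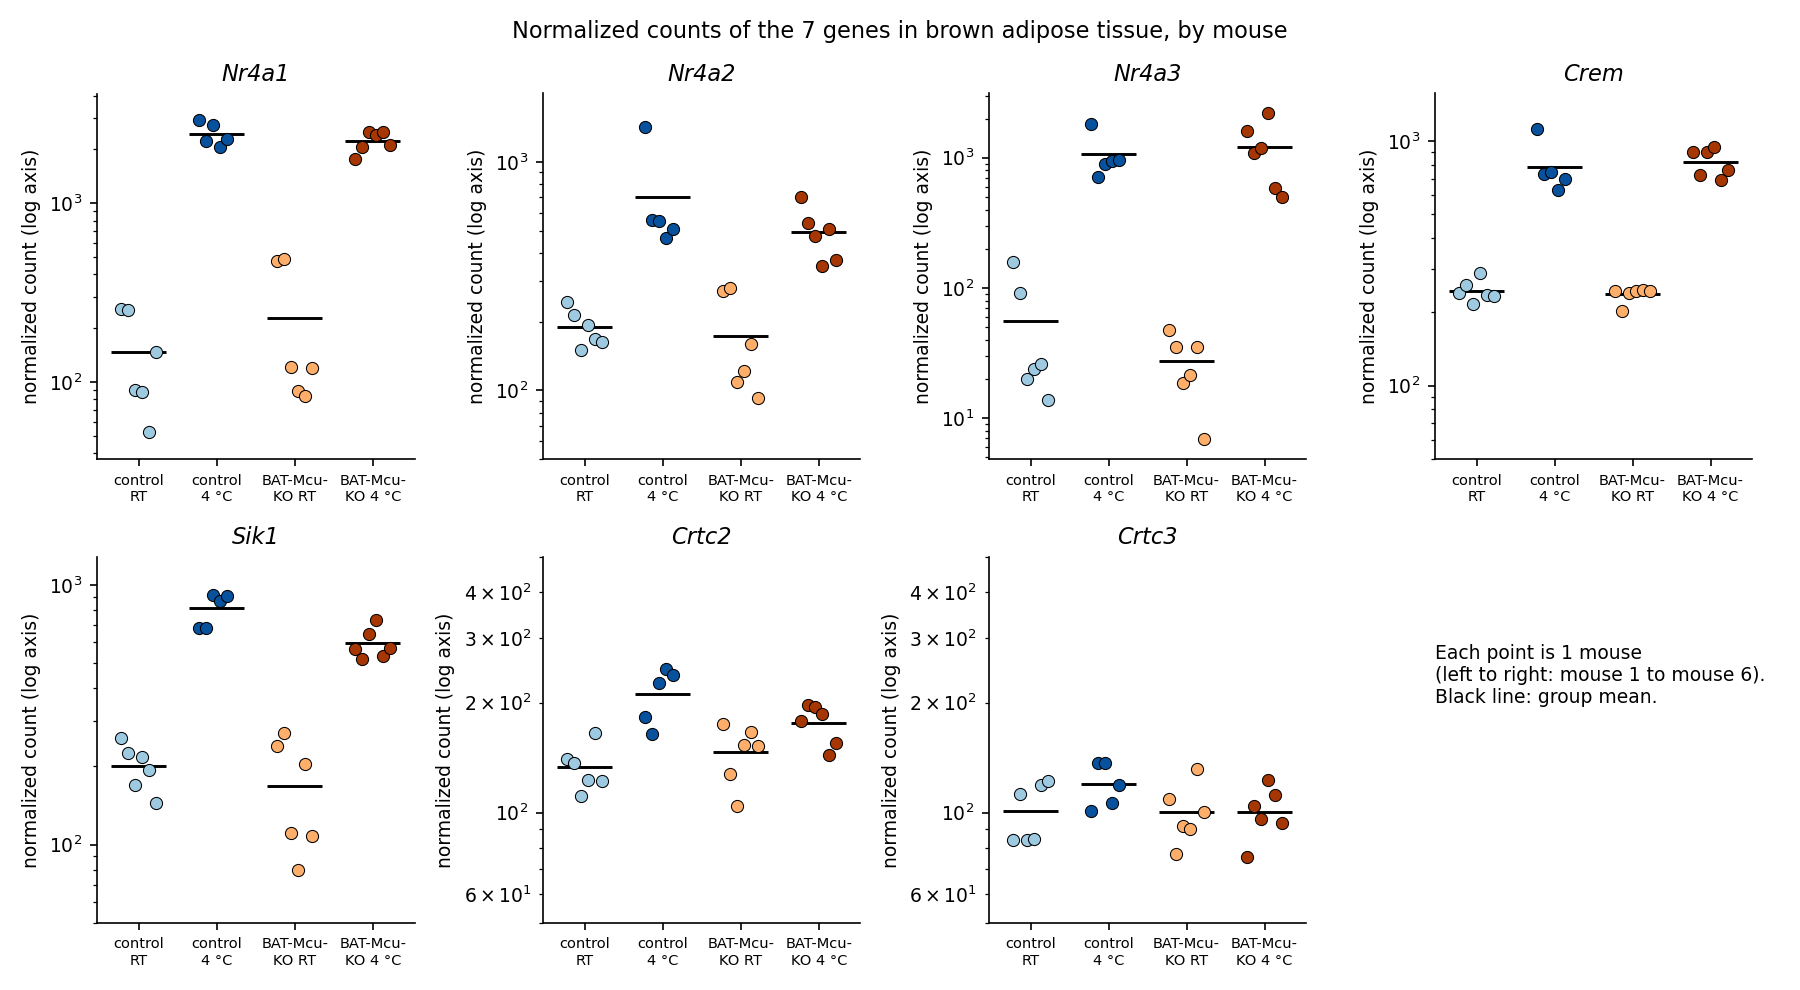
Normalized count of each gene (log axis) in every mouse of the 4 groups, with 1 point per mouse and a line at the group mean. Points of Nr4a1, Nr4a2, Nr4a3, Crem and Sik1 at 4 °C lie above all points at RT of the same genotype, and those of Crtc2 and Crtc3 overlap.

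Nr4a1, the NR4A receptor known as NUR77, had a normalized count of 52.8 to 256 (median 118) in the 6 controls at RT. It was 2937, 2223, 2736, 2053 and 2284 in the 5 controls at 4 °C. The groups were far apart, at 148 ± 88.1 on average at RT (SD, n = 6) and 2447 ± 373 in the cold (SD, n = 5). On the log2 scale the rise was 4.25 with an SE of 0.41 (here and below ± after a log2 change is the SE; adjusted p = 5.4e-09, limma), and it was the 34th highest of the 14651 genes. In BAT-Mcu-KO Nr4a1 went from 83.7 to 485 (median 120.3) at RT to 1769 to 2519 (median 2256) at 4 °C, a log2 fold change of 3.69 ± 0.39 with an adjusted p of 2.9e-08. The 95% confidence intervals ran from 3.41 to 5.10 in controls and from 2.88 to 4.49 in BAT-Mcu-KO. Without the mice numbered 1 and 2 in all 4 groups the change was 4.53 in BAT-Mcu-KO and 4.71 in controls.

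Nr4a3, the receptor known as NOR1, was the scarcest of the 7 at RT and changed most. Its normalized count was 13.9 to 158 (median 24.9) in controls at RT, and 1810.4, 715, 896, 952 and 954 at 4 °C. In BAT-Mcu-KO it was 6.91 to 47.5 (median 28.2) at RT and 496 to 2224 (median 1136) at 4 °C. The lowest mouse at RT held 7 reads of this gene, so its level there is imprecise. The log2 fold change was 4.73 ± 0.51 in controls (adjusted p = 4.4e-08) and 5.42 ± 0.49 in BAT-Mcu-KO (adjusted p = 2.1e-09), ranks 20 and 7 from the top among all genes. Without the mice numbered 1 and 2 the change in controls was 5.45. Among the BAT-Mcu-KO mice in the cold it was the most variable of the 7 genes, with a coefficient of variation of 54.2% against 13.4% for Nr4a1 in the same mice.

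Nr4a2, the receptor known as NURR1, rose less. It was 150.1 to 245 (median 181) in controls at RT and 1424, 560.0, 551, 464 and 507 at 4 °C. It was 92.8 to 281 (median 140.4) in BAT-Mcu-KO at RT and 350.3 to 705 (median 489.9) at 4 °C. Mouse 1 of the controls at 4 °C, the shallowest library, stood at more than any other mouse. The log2 fold change was 1.76 ± 0.28 in controls (adjusted p = 1.1e-05) and 1.60 ± 0.27 in BAT-Mcu-KO (adjusted p = 2.4e-05), and without that mouse it was 1.47 in controls.

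Crem had the tightest values of the 7 genes at RT. It was 216 to 288 (median 237) in controls at RT and 1115, 731, 748, 630.3 and 695 at 4 °C. In BAT-Mcu-KO it was 201 to 246 (median 243) at RT and 690.5 to 945 (median 830.3) at 4 °C. The coefficient of variation at RT was 10.3% in controls and 7.25% in BAT-Mcu-KO, against 59.6% and 85.4% for Nr4a1 in the same mice. The log2 fold change was 1.65 ± 0.12 in controls (adjusted p = 4.3e-11) and 1.79 ± 0.11 in BAT-Mcu-KO (adjusted p = 5.7e-12).

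Sik1 was 145 to 258 (median 205) in controls at RT and 684, 679.9, 914, 867 and 908 at 4 °C. It was 79.7 to 269 (median 157) in BAT-Mcu-KO at RT and 517 to 733 (median 568) at 4 °C. The groups at the 2 temperatures did not touch in either genotype. The log2 fold change was 2.02 ± 0.23 in controls (adjusted p = 9.2e-08) and 1.95 ± 0.22 in BAT-Mcu-KO (adjusted p = 8.1e-08).

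Of the coactivators, Crtc2 rose in controls, and Crtc3 passed the test in neither genotype. Crtc2 was 111 to 165 (median 129.8) in controls at RT and 182, 164, 227, 247 and 238 at 4 °C, so that 4 of the 5 cold mice exceeded every mouse at RT. Its log2 fold change in controls was 0.66 ± 0.14 (adjusted p = 0.00048). In BAT-Mcu-KO it was 104 to 174 (median 153) at RT and 144 to 197 (median 182) at 4 °C, a log2 difference of 0.27 ± 0.14 that did not pass the test (adjusted p = 0.107, 95% confidence interval -0.0050 to 0.55). Crtc3 was 84.0 to 122 in controls at RT and 101, 137, 137, 107 and 119 at 4 °C, with a log2 difference of 0.25 ± 0.16 (adjusted p = 0.190). In BAT-Mcu-KO it was 77.2 to 132 at RT and 75.6 to 123 at 4 °C, with a log2 difference of 0.01 (95% confidence interval -0.30 to 0.31, adjusted p = 0.966). That last value was below 0 with scaling to the 75th percentile (-0.041) and above it with quantile normalization (0.083). Levels of mRNA do not show the phosphorylation by which CRTC proteins are known to be controlled.

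**Figure D2:**
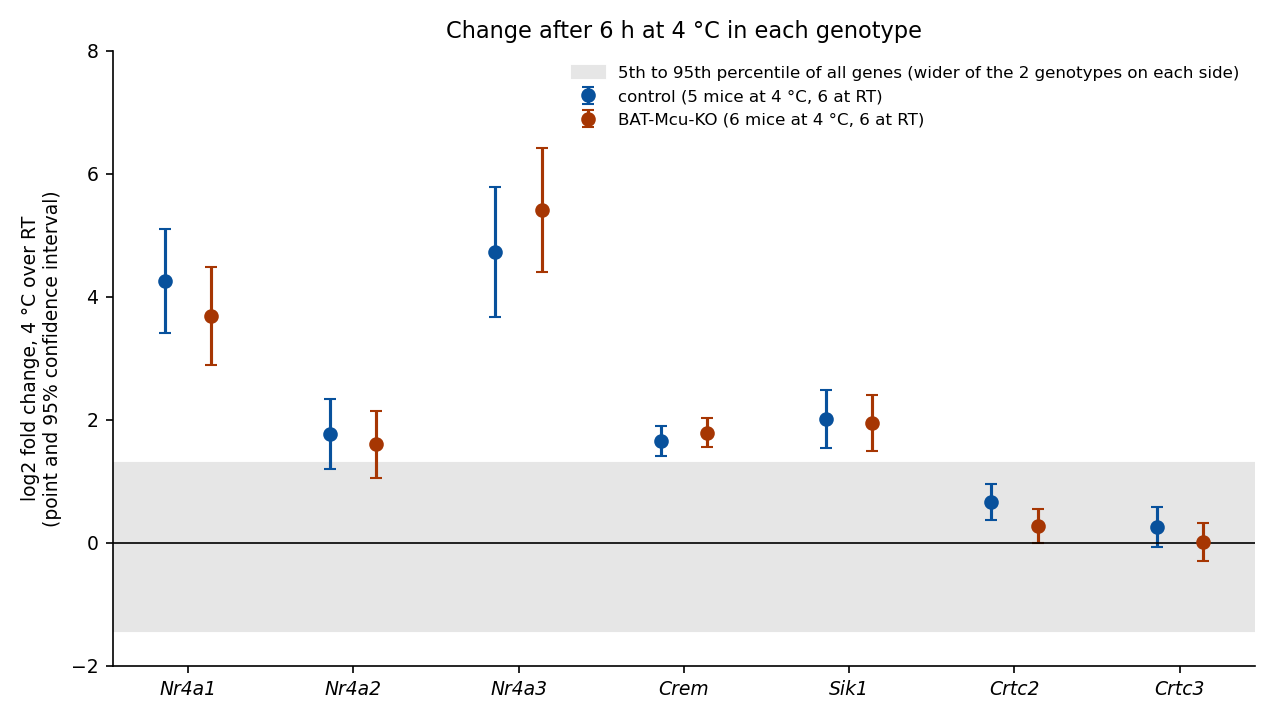
Log2 fold change of 4 °C over RT for each gene in controls and in BAT-Mcu-KO, with its 95% confidence interval from limma, over a grey band from the 5th to the 95th percentile of all genes. Nr4a1 and Nr4a3 stand at 3.69 to 5.42, Nr4a2, Crem and Sik1 at 1.60 to 2.02, and Crtc2 and Crtc3 at 0.66 or less.

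Levels were then compared between genes as normalized counts per kilobase of merged exons. This length joins the exons of all annotated transcripts of a gene, 39 for Crem, so the order between genes depends on the annotation. In controls at RT the order was Nr4a2 (46.5 ± 8.78 per kilobase), Nr4a1 (42.1 ± 25.1), Crem (41.5 ± 4.26), Sik1 (39.2 ± 7.88) and Crtc2 (32.5 ± 4.58), and neighbours among these overlapped from mouse to mouse. Crtc3 (10.3 ± 1.89) and Nr4a3 (9.29 ± 9.66) came last and overlapped each other, but Crtc2 was above Crtc3 in all 6 mice. At 4 °C Nr4a1 led with 697 ± 106 per kilobase in controls and 636 ± 85.3 in BAT-Mcu-KO, above the next gene in every mouse. Nr4a3, whose mean was the lowest at RT in both genotypes, was second at 4 °C, at 178 ± 71.4 and 200.2 ± 108 per kilobase. It overlapped there with the gene next below it. Crtc2 (51.7 and 43.0 per kilobase) and Crtc3 (12.2 and 10.2) were the lowest in the cold, and each was separate from the gene above it.

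The makeup of the NR4A family therefore differed between temperatures. Of the summed level per kilobase of the 3 receptors, Nr4a2 made up 51.6% ± 12.7 (SD, n = 6) in controls at RT and 15.7% ± 4.51 (n = 5) at 4 °C. In BAT-Mcu-KO its share was 42.2% at RT (31.9% to 56.8% over the 6 mice) and 12.8% ± 3.61 at 4 °C. The share of Nr4a1 went the other way, from 40.5% ± 10.4 to 67.6% ± 6.68 in controls and from 53.1% ± 12.2 to 67.0% ± 9.45 in BAT-Mcu-KO. In BAT-Mcu-KO its mean share was thus above that of Nr4a2 already at RT. Its shares there overlapped between temperatures (34.6% to 64.8% at RT and 53.2% to 77.5% at 4 °C). Nr4a3 went from 7.93% ± 5.03 to 16.7% ± 2.93 and from 4.67% ± 2.41 to 20.2% ± 9.03.

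**Figure D3:**
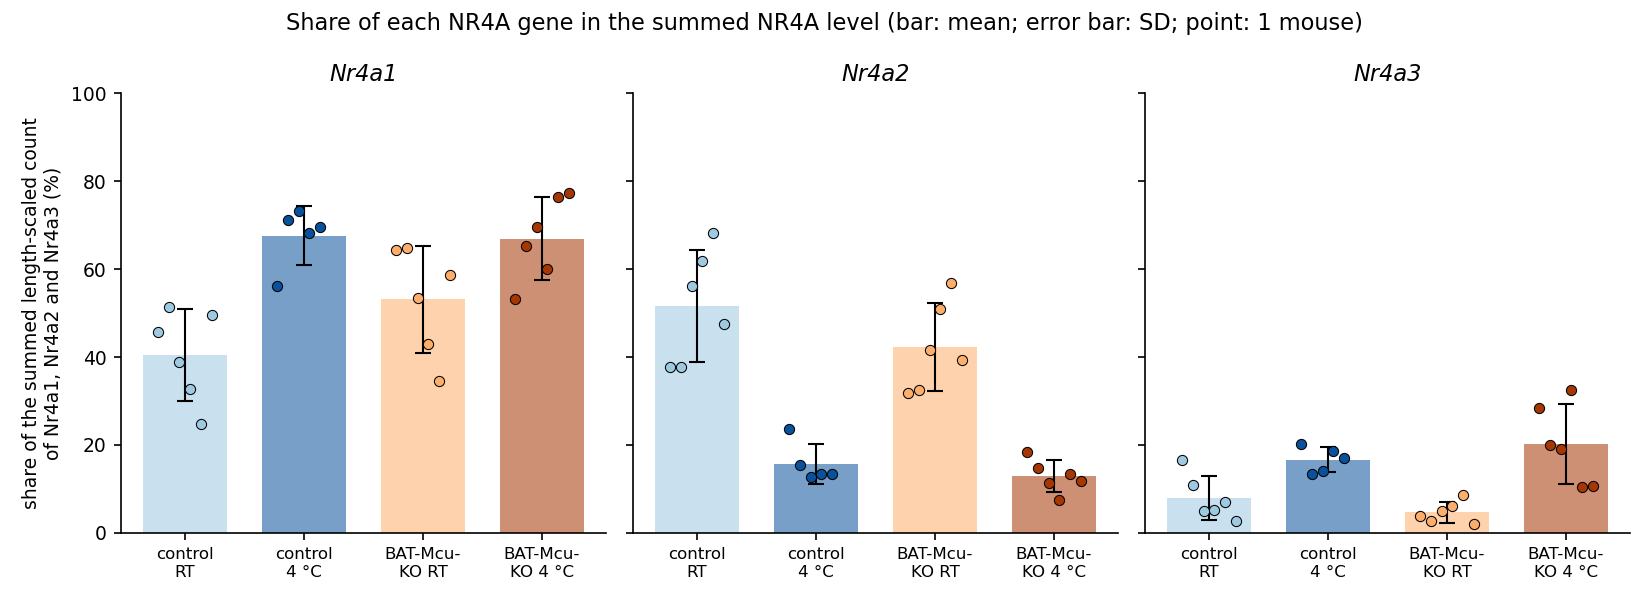
Share of each NR4A gene in the summed count per kilobase of the 3 genes, in percent, with bars at the mean, error bars of 1 SD and 1 point per mouse. At RT Nr4a2 holds 51.6% and Nr4a1 40.5% in controls, against 42.2% and 53.1% in BAT-Mcu-KO. At 4 °C Nr4a1 holds 67.6% in controls and 67.0% in BAT-Mcu-KO.

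Ratios within a mouse, which the scaling of the library leaves alone, were tested for 5 pairs of genes in each genotype by exact permutation of the mice between temperatures (two-sided, 10 tests, smallest possible p = 0.0022). The log2 ratio of Nr4a1 to Nr4a2 was higher at 4 °C by 2.49 in controls and by 2.09 in BAT-Mcu-KO (adjusted exact p = 0.0043 in both), without overlap of mice. That of Nr4a2 to Nr4a3 differed by -2.96 in controls (adjusted exact p = 0.0072) and by -3.82 in BAT-Mcu-KO (adjusted exact p = 0.0043). Nr4a1 and Nr4a3 rose by amounts that could not be told apart in controls (log2 ratio -0.47, adjusted exact p = 0.348), and in BAT-Mcu-KO Nr4a1 rose less than Nr4a3 (log2 ratio -1.73, adjusted exact p = 0.0216). That last call was lost without mouse 2 or without mouse 6 of BAT-Mcu-KO at RT, at -1.54 and -1.50 (adjusted exact p = 0.0526 in both). Sik1 rose against its relative Sik2 by 1.88 in controls and by 1.91 in BAT-Mcu-KO (adjusted exact p = 0.0043 in both). Crtc2 against Crtc3 differed by 0.40 in controls (adjusted exact p = 0.0731) and by 0.27 in BAT-Mcu-KO (adjusted exact p = 0.137), and the value in controls passed the threshold without mouse 2 at 4 °C (0.54, adjusted exact p = 0.0189). None of the 5 ratios passed the test of a change that differs between the genotypes (10000 permutations within temperatures, smallest adjusted p = 0.472, for Nr4a1 to Nr4a3 with a difference of -1.26).

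The second question was whether loss of MCU altered these genes. None of the 7 passed the test between genotypes at RT, when 0.0478% of all genes did, or at 4 °C, when 0.0751% did. None passed the test of a cold response that differs between genotypes, where limma called 0 of 14651 genes (0.0%), with 878 at an unadjusted p under 0.05, edgeR called 0 and DESeq2 called 28. No member had an unadjusted p under 0.05 by limma in any of these 3 comparisons, and DESeq2 and edgeR called none of them. The smallest adjusted p of the 7 genes was 0.955 at RT, 0.735 at 4 °C and 0.841 for the difference in response. Crem was bounded most closely, with a difference in response of 0.13 on the log2 scale (95% confidence interval -0.21 to 0.47). For Nr4a3 the interval of the same difference was wide, from -0.78 to 2.15 around 0.69, and for Nr4a1 it ran from -1.73 to 0.59 around -0.57.

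Sik1 at 4 °C came nearest to a difference between genotypes. Of the 6 BAT-Mcu-KO mice, 5 lay below every control, with 595 ± 81.6 on average (SD, n = 6) against 810.3 ± 119 in controls (SD, n = 5). The log2 difference was -0.44 ± 0.23 (95% confidence interval -0.92 to 0.03), which failed the correction (limma, unadjusted p = 0.0645, adjusted p = 0.735, between 0.492 and 0.872 over the alternatives). Sik1 was also lower in BAT-Mcu-KO at RT, by a log2 difference of -0.37 that did not pass either (adjusted p = 0.955), and its cold response differed by -0.07 (adjusted p = 0.982). For Crtc2, whose rise was called in controls only, the test of the difference between the responses gave -0.38 (95% confidence interval -0.79 to 0.02, adjusted p = 0.841), so a difference between the genotypes was not shown.

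The mice at RT were not alike in these genes. Nr4a1 was 256 and 253 in mice 1 and 2 of the controls and 52.8 to 147 in the other 4. In BAT-Mcu-KO it was 477 and 485 in mice 1 and 2 and 83.7 to 121 in the other 4. Mice 1 and 2 were thus the highest of their group in both genotypes, and the same held for Nr4a2 (245 and 214 in controls, 274 and 281 in BAT-Mcu-KO) and for Sik1 (258 and 225, 239 and 269). Of all 14651 genes, 64 (0.437%) had mice 1 and 2 highest in both groups at RT. Nr4a3 had this arrangement in controls, at 158 and 92.1 against 13.9 to 25.9, but not in BAT-Mcu-KO, and Crem, Crtc2 and Crtc3 had it in neither. The labels give these mice no more than a number, and the arrangement was picked out after the values were seen, so it carries no test. Their libraries held 11088466 to 17394689 reads, against 11724234 to 14342975 in the other 8 mice at RT, and the part of depth in this arrangement was not tested. Even the highest of these values, 485, stayed under the lowest at 4 °C, 1769.

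**Figure D4:**
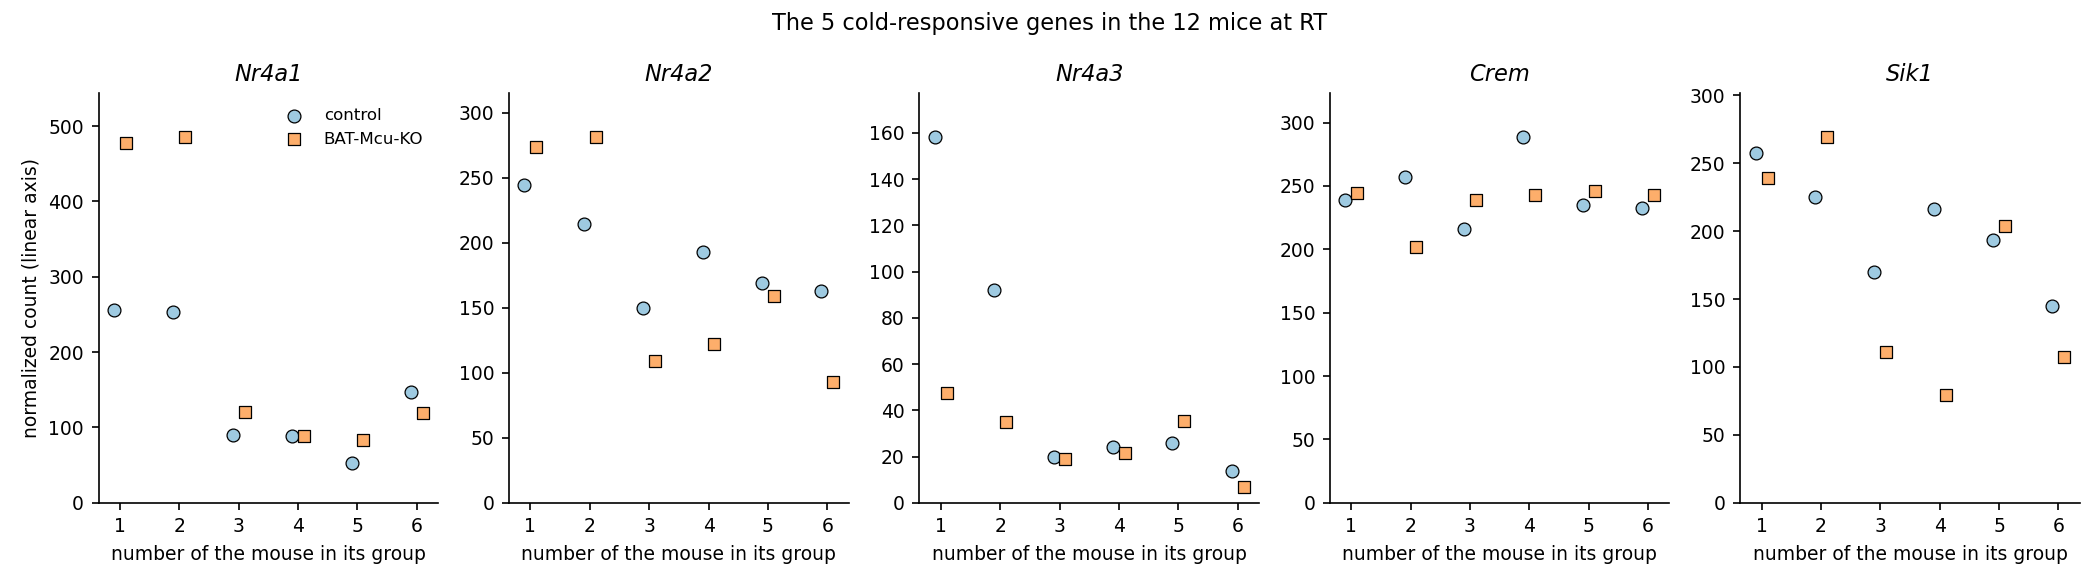
Normalized counts (linear axis) of Nr4a1, Nr4a2, Nr4a3, Crem and Sik1 in the 12 mice at RT by the number of the mouse, with circles for controls and squares for BAT-Mcu-KO. In both genotypes mice 1 and 2 are highest in Nr4a1, Nr4a2 and Sik1, and Crem is level across mice.

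Egr1, another immediate early gene and the one gene of the CREB target list below that differed between genotypes, did not follow the same mice. It was 1148 and 779 in mice 1 and 2 of the controls at RT and 83.9 to 306 in the other 4, but 33.7 and 37.4 in mice 1 and 2 of BAT-Mcu-KO, the lowest of their group. The log2 difference between genotypes at RT was -2.65 ± 0.42 (limma, adjusted p = 0.0064). Without the mice numbered 1 and 2 it was -1.63 and was not called (adjusted p = 0.232), nor was it when the fit held no more than the groups compared (adjusted p = 0.202).

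Deviations of the 5 cold-responsive genes from their group mean were correlated over the 12 mice at RT and the 11 mice at 4 °C (20 relations, permutation p, Benjamini-Hochberg). The relations past the threshold numbered 4. Because mice 1 and 2 stood apart in Nr4a1 at RT, no pooled value is given for Nr4a1 with Nr4a2, and over the other 8 mice r was -0.39 (permutation p = 0.328). Nr4a2 and Sik1 moved together at RT (r = 0.89, Spearman rho = 0.93, permutation p = 0.00013, adjusted p = 0.0026), but it no longer passed without the 2 mice farthest from the median of Nr4a2 (r = 0.79, adjusted permutation p = 0.0628) or without the mice numbered 1 and 2 (r = 0.67, adjusted permutation p = 0.286). Nr4a2 and Nr4a3 did so at RT (r = 0.72, rho = 0.69, adjusted permutation p = 0.0476) and Nr4a3 and Crem at 4 °C (r = 0.73, rho = 0.66, adjusted permutation p = 0.0476). Both lost the call without the 2 farthest mice (r = 0.80 and 0.79, adjusted permutation p = 0.0628 and 0.0632), with a pseudocount of 10, with rho, with scaling to the 75th percentile and without the mice numbered 1 and 2 (adjusted p between 0.054 and 0.134). They also lost it without 8 of the 12 mice at RT and without 8 of the 11 at 4 °C, each left out in turn. The remaining 16 relations had r between -0.61 and 0.67.

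Over all 23 mice, the genes whose deviations were most like those of each member were listed from the 9524 others with a mean normalized count of at least 50, as a description with no test. For Nr4a1 these were Gm16062 (r = 0.79), 2010315B03Rik (0.76) and Chrnb1 (0.71). For Nr4a2 they were Dars (0.72), Churc1 (0.71) and Ccdc176 (0.69), and for Nr4a3 Hsph1 (0.81), 3930402G23Rik (0.81) and Ahsa1 (0.81). For Crem they were Ugdh (0.81), Tax1bp1 (0.81) and Pde1a (0.79), and for Sik1 RP23-119D13.4 (0.87), Trib1 (0.86) and Gtf2ird1 (0.81). For Crtc2 they were Wbscr16 (0.81), Nsun2 (0.76) and Zfp598 (0.73), and for Crtc3 Zfp408 (0.68), Upf1 (0.67) and Vps72 (0.67). All these points share libraries and their depth.

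The rest of the pathway was followed through lists of its parts, and the counts are to be read against the shares of all genes called above. Among other textbook CREB targets, 10 of the 15 in the table rose and 2 fell in controls, and 10 rose and 1 fell in BAT-Mcu-KO, with median log2 fold changes of 1.44 and 1.53. Atf3, a stress-induced transcription factor, rose by 5.49 ± 0.37 in controls and 3.78 ± 0.35 in BAT-Mcu-KO on the log2 scale, and Ppargc1a, the coactivator of mitochondrial biogenesis, by 5.10 ± 0.23 and 4.33 ± 0.22. Gem, a small GTPase, rose by 2.85 ± 0.38 and 2.99 ± 0.36, and Nfil3, a transcriptional repressor, by 2.71 ± 0.29 and 2.83 ± 0.28. Egr1 fell by 2.10 in controls and Pck1, an enzyme of glyceroneogenesis, fell by 0.70 there and by 0.40 in BAT-Mcu-KO.

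The machinery around CREB moved less. Of the CREB family, Atf1 (1.01 and 0.57 on the log2 scale in controls and BAT-Mcu-KO) and Creb3 (0.69 and 0.97) rose in both genotypes, and Creb1 itself was at 0.21 and 0.08 without passing the test. Of the other coactivators, 1 of 3 rose, Crebbp, by 0.62 and 0.57. Among Sik2, Sik3 and the 3 components of the LKB1 complex that activates SIKs, 1 rose and 2 fell in controls, and 1 rose and 3 fell in BAT-Mcu-KO. Sik3 rose by 1.24 and 1.00, and Strada (-0.87 and -0.73) and Stk11 (-0.62 and -0.36), which encodes LKB1, fell in both genotypes. Cab39, of the same complex, fell in BAT-Mcu-KO (-0.40) and was at -0.25 in controls without passing. None of the 4 class IIa histone deacetylases, which SIKs also phosphorylate, passed in either genotype. Of the 3 retinoid X receptors, partners of some NR4A proteins, 1 rose, Rxrg, by 0.51 and 0.60.

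Among 6 PKA subunits, 2 rose and 2 fell in each genotype. Prkar1a (0.85 and 0.90) and Prkar2a (0.60 and 0.50), which encode regulatory subunits, rose. Prkaca (-0.69 and -0.91), which encodes a catalytic subunit, and Prkar2b (-0.64 and -0.69) fell. Of calcineurin, the phosphatase that acts on CRTC proteins, Ppp3r1 rose (0.34 and 0.35) and Ppp3ca fell (-0.34 and -0.64), and its regulator Rcan1 rose in controls (1.07) and was at 0.12 in BAT-Mcu-KO without passing, a difference in response of -0.94 that was not called (adjusted p = 0.780). Of the 6 genes of 14-3-3 proteins in the table, 3 rose and 1 fell in controls and 2 rose in BAT-Mcu-KO, led by Ywhaz (0.47 and 0.40) and Ywhah (0.44 and 0.40), with Ywhag (0.27) higher and Ywhaq (-0.39) lower in controls. Apart from Egr1 at RT, no gene of these lists passed a test between genotypes or of a difference in response.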

How the data were processed

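RNA-seq of BAT from 23 mice was read from the table the authors deposited. Per the methods of the study, Smart-seq2 libraries were sequenced as paired reads and aligned to mm10 (GENCODE M7) with STAR 2.4.0j. Reads unique to exons were counted irrespective of strand with HTSeq, genes were kept that had 8 or more reads in 6 or more samples, and the authors divided the counts by DESeq2 size factors. The deposited signal is thus a normalized count, which does not correct for gene length. Size factors assume that most genes do not change, and short unstranded reads can be misassigned among overlapping or near-identical genes. Whole reads were recovered from these values (all came out whole to within 0.1 read in every library) for the count tests and the depths. A second deposited table holds the authors' own fold changes and p-values per comparison and was not used. Per-sample columns left out numbered 0.

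Columns were assigned to mice by their names. The main test was limma 3.58.1 (R 4.3.3) with a variance trend on log2(normalized count + 1), fitted to the 4 group means over all 23 mice and 14651 genes without further filter, with Benjamini-Hochberg adjustment and a threshold of 0.05. The added 1 draws the fold changes of low genes toward 0. For Nr4a3 in controls the log2 change by cold was 4.73, and 4.75 with 0.5 added in place of 1. By DESeq2 and edgeR it was lower, at 4.25 and 4.20. The 7 genes passed the authors' filter with 7 to 3250 reads per mouse. Alternatives were other pseudocounts (0.5 and 10), a filter at a mean of 50, other scalings (75th percentile, quantile), limma without the trend or on the compared groups only, a replicate block, DESeq2 1.42.0 and edgeR 4.0.16 on recovered reads, and leaving out each mouse. Leaving out the mice numbered 1 and 2, or those under 9000000 reads, was added after seeing the data. Fits were run on simulated counts, with changes set in a small part of the genes in 1 group and mice drawn independently. That setting differs from the broad cold response here, so the run checks the code and not these results. Samples of a group were separate mice, and no pair of libraries was a duplicate. The members, lists and tests were chosen with earlier results of these data known. All 7 members are named in every comparison, and from each list at most 4 genes per direction, those with the largest change in controls among the called, plus any called between genotypes. Adjusted p-values are from limma unless an exact or permutation test is named. Ratios used exact permutation tests and correlations 100000 permutations (scipy 1.17.1).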

Additional observations from a re-analysis of the deposited data

Results flagged for a closer look

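In 28 groups of values (7 genes in 4 groups) an outlying mouse was looked for by the gap to its neighbour over the range of the group (Dixon's 95% criterion), which chance meets in about 5% of groups, and 4 groups held one. Mouse 1 of the controls at 4 °C was the outlying high value in 3 of them, for Nr4a2 (1424), Nr4a3 (1810.4) and Crem (1115). In the same mouse Nr4a1 was also the highest of its group, at 2937, while Sik1 was not, at 684. This library was the shallowest, at 7129271 reads, and whether depth has a part in these values was not tested. Without this mouse the log2 fold changes of cold in controls were 1.47 for Nr4a2, 4.52 for Nr4a3 and 1.52 for Crem, and all were still called. The other outlying value was the low Crem count of mouse 2 of BAT-Mcu-KO at RT (201), the same mouse that had the highest Nr4a1 at RT. No gene of the 7 and none of the ratios passed the test of a response to cold that differs between the genotypes.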

How the results depend on the processing

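The number of the 7 genes called was 6 for cold in controls, 5 for cold in BAT-Mcu-KO and 0 for each genotype comparison and for the difference in response under every alternative and without each mouse in turn. The labels do not say whether equal numbers pair the mice. Correlations of same-numbered mice ran from -0.59 to 0.50, and such a range cannot exclude that equal numbers mark a shared litter or day. With the replicate block the counts of the 7 genes called were likewise 6, 5, 0, 0 and 0. Scaling to the 75th percentile moved the median log2 change of all genes from -0.02 to -0.13 and the share of higher calls from 48.5% to 38.2% for cold in controls. Genes called between genotypes at RT and at 4 °C numbered 7 and 11 in the main analysis, 20 and 23 by DESeq2, 7 and 6 by edgeR, 3 and 2 with the compared groups alone, 6 and 4 without the libraries under 9000000 reads, 7 and 7 by limma without the trend, and 0 and 9 without the mice numbered 1 and 2. Without each mouse the count at RT lay between 5 and 8 and that at 4 °C between 3 and 16. The latter was 3 without mouse 2 and 7 without mouse 5 of the controls, 6 without mouse 4 of BAT-Mcu-KO and 16 without mouse 1 of the controls. For cold edgeR called 6780 genes in controls and 6501 in BAT-Mcu-KO on the recovered reads.

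Uncalled values near 0 changed sign. Crtc3 for cold in BAT-Mcu-KO was -0.041 with 75th percentile scaling, -0.0010 by DESeq2 and -0.0011 by edgeR, and -0.061 to 0.092 without each mouse. Without the mice numbered 1 and 2, the difference between genotypes was 0.0063 for Crem and 0.023 for Crtc3 at RT and 0.024 for Nr4a1 at 4 °C, and the difference in response was 0.24 for Nr4a2 and 0.062 for Sik1. For Nr4a2 it was 0.16 without the libraries under 9000000 reads. Without each mouse, the genotype difference ran from -0.083 to 8.4e-05 for Crem and from -0.096 to 0.057 for Crtc3 at RT and from -0.16 to 0.27 for Nr4a3 at 4 °C, and the difference in response from -0.32 to 0.13 for Nr4a2 and from -0.25 to 0.094 for Sik1. The cause was not tested.

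Ratios called numbered 7, and 6 to 8 without each mouse. Nr4a1 to Nr4a3 in BAT-Mcu-KO lost its call with a pseudocount of 10 (-1.33, adjusted exact p = 0.0526). Correlations called numbered 4, and 2 with a pseudocount of 10, 1 with Spearman rho, 0 without the 2 farthest mice and 2 with 75th percentile scaling, and from 1 to 5 without each mouse. Without the mice numbered 1 and 2 none of the 4 was called, and 2 others were, Nr4a3 with Sik1 (r = 0.94, adjusted permutation p = 0.0489) and Crem with Sik1 (r = 0.93, adjusted permutation p = 0.0444) at 4 °C, which stood at 0.27 and -0.05 over all mice. Without the mice numbered 1 and 2 the relation of Nr4a1 and Nr4a2 at RT turned to -0.39. Nr4a3 at RT, with as few as 7 reads, is the value that depth limits most.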
